A study of Arabidopsis thaliana with 12 samples.

Results

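The 40 genes described here had high signals in young Arabidopsis rosettes, lower signals in older control rosettes, and signals in older SPH1 RNAi rosettes that stayed closer to the young level. They were chosen from the measured values by a rule on group means of log2(signal + 16). The rule asked for a mean signal of at least 32 over the 12 arrays and a probe set (the group of probes that reports a transcript) listed with 1 gene. It asked for SPH1 RNAi minus Col-0 of at least 1 at stage 1.14 and a genotype difference of less than 0.5 in either direction at stage 1.05. It also asked that Col-0 at stage 1.14 was lower than at stage 1.05 by at least 1. Of 13513 probe sets with 1 gene, 7095 reached the mean signal and 68 met all thresholds. The rule also left out ribosomal protein, lipid-transfer, osmotin or thaumatin, glycosyl hydrolase family 9, GDSL lipase, polygalacturonase, expansin and XTH genes and 4 named genes. That removed 28 of the 68, of which 17 were ribosomal protein genes. The 40 that remained came from 40 different genes. The annotation lists 1 further probe set for these genes, and its values are not described here. AT1G25260 and AT4G12600 carry domains related to ribosomal proteins and were kept, because their yeast counterparts assemble ribosomes or RNA particles and are not part of the finished ribosome.

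RNA came from rosette leaves of plants of the Col-0 ecotype, with 40 plants pooled per array and 3 Affymetrix ATH1 arrays in each of 4 groups. Control plants and plants with an RNAi construct against SPH1, which the title calls a signalling protein, were each sampled at growth stages 1.05 and 1.14 of a scale that counts visible rosette leaves. All plants grew in compost and perlite in a greenhouse at 20 C and 80% humidity under a 16 h photoperiod. The labels treat the arrays of a group as replicates without saying whether their plants were grown separately, so a p-value measures the spread between these arrays, which may be technical. The labels do not say whether the RNAi plants descend from 1 transformed line. SPH1 itself was not analysed here, so the labels were not checked against the targeted gene.

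Young leaves are built by dividing and expanding cells. Such cells make ribosomes, replicate and separate chromosomes, and lay down and remodel a primary cell wall of cellulose, pectin and proteins. As a leaf matures, division and expansion stop and transcripts of these functions usually become less abundant. In a whole rosette the level of such a transcript also depends on how many leaves are young, and with pooled rosettes fewer cells of a type and less RNA per cell cannot be told apart.

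Some arrays stood apart from their group in ways that touch the values below. SPH1 RNAi replicate 1 at stage 1.14 correlated with replicates 2 and 3 of its group at r = 0.894 and 0.904 over the tested probe sets, while those 2 correlated at 0.969. Col-0 replicate 2 at stage 1.14 correlated at 0.938 and 0.952 with replicates 1 and 3, which correlated at 0.986. SPH1 RNAi replicate 1 at stage 1.05 correlated at 0.944 and 0.952 with replicates 2 and 3, which correlated at 0.972. The labels mark SPH1 RNAi replicates 2 and 3 at stage 1.14 as repeats, with no mark on replicate 1. SPH1 RNAi replicate 3 at stage 1.14 was grouped by its source name, because its labels carry no entry for the RNAi construct. All 12 arrays had the same trimmed mean signal of about 100.01, and their median signals ran from 37.75 to 48.3. For the role groups, and for the genes where it is stated, values are also given without SPH1 RNAi replicate 1 at stage 1.14.

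Among all probe sets with 1 gene that were lower by at least 1 in Col-0 at stage 1.14, the pattern that defines the 40 genes was common in direction. There were 477 such probe sets, and 369 of them differed by less than 0.5 between genotypes at stage 1.05. In 338 of the 369 (91.6%) the SPH1 RNAi mean at stage 1.14 lay above the Col-0 mean, and in 68 (18.4%) it did so by at least 1. The median SPH1 RNAi minus Col-0 difference at stage 1.14 was 0.66 over the 369, against 0.04 over all 13263 tested probe sets. From stage 1.05 to stage 1.14 the 369 changed by a median of -1.31 in control plants and of -0.52 in RNAi plants. The same 3 Col-0 arrays at stage 1.14 enter both the genotype difference and the Col-0 stage change, so a low value on them moves both, and the counts are a description with no test.

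Over the 40 genes, the SPH1 RNAi minus Col-0 difference at stage 1.14 had a median of 1.23 and ran from 1.002 to 2.21 on the log2(signal + 16) scale. The added constant of 16 makes these differences smaller than those of the signals themselves, most of all for dim genes. At stage 1.05 the difference had a median of -0.08. The Col-0 stage change ran from -2.63 to -1.005 with a median of -1.59, and the SPH1 RNAi stage change ran from -1.07 to 0.34 with a median of -0.28. These values chose the genes, or follow from those that did, and carry no test. In 37 of the 40 genes all 3 SPH1 RNAi arrays at stage 1.14 lay above all 3 Col-0 arrays, as they did in 17.9% of all tested probe sets. The 3 genes whose groups overlapped were DI21, AT5G25475 and AT2G07170. All 3 Col-0 arrays at stage 1.05 lay above all 3 at stage 1.14 in 40 of 40 genes, against 28% of all tested probe sets. In both counts the rule used the contrast, so nothing is read from the difference to the background. SPH1 RNAi arrays at stage 1.14 overlapped the range of SPH1 RNAi arrays at stage 1.05 in 33 genes and that of Col-0 arrays at stage 1.05 in 32. The shares of all tested probe sets with such overlaps were not computed, and a wide spread between arrays makes overlap easier. Nothing is therefore read from these 2 counts.

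**Figure D1:**
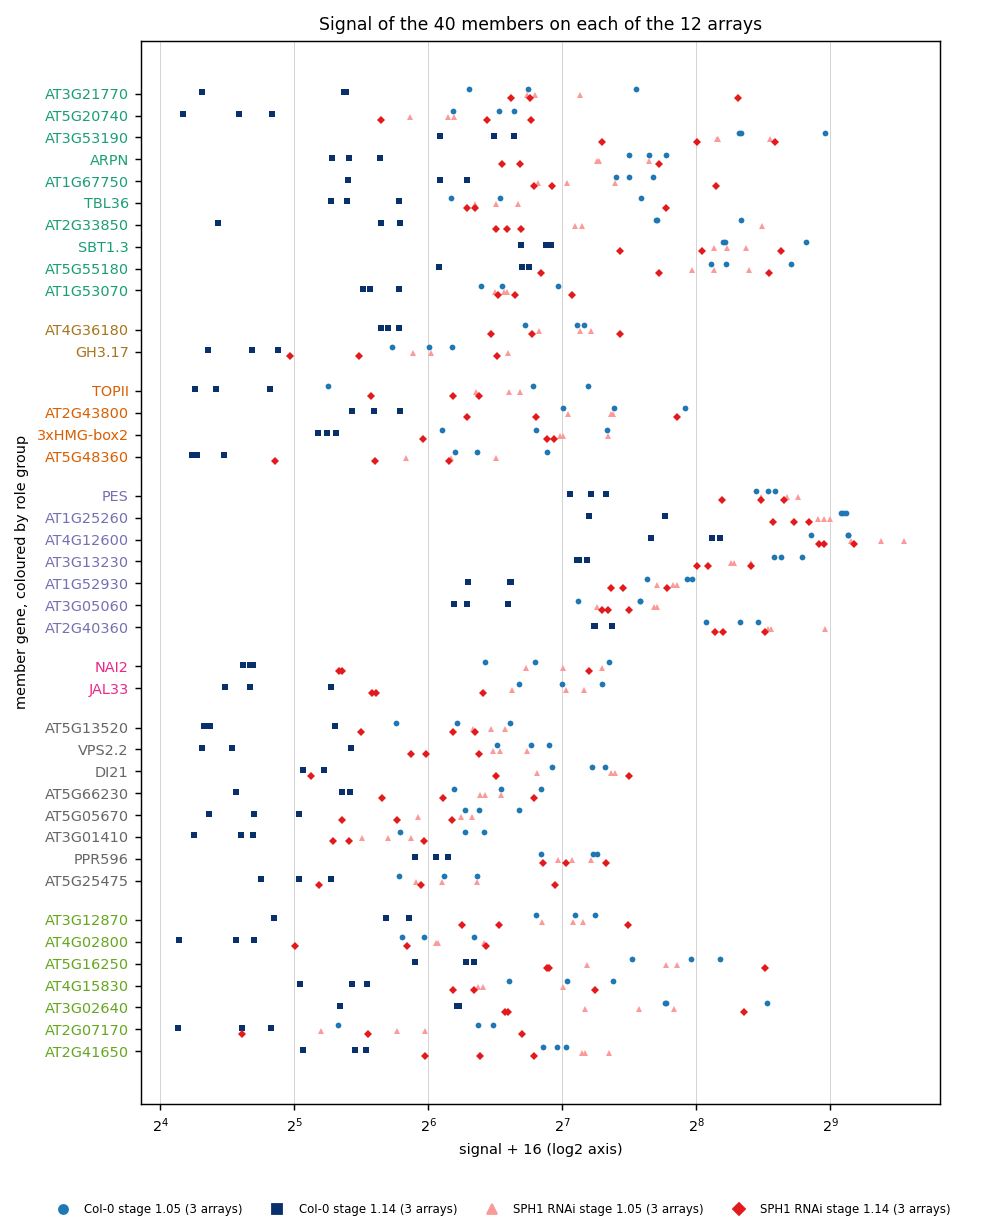
Signal plus 16 of each of the 40 genes on each of the 12 arrays, on a log2 axis, with genes in rows coloured by role group and the 4 groups shown by marker shape. Col-0 at stage 1.14 lies to the left in each row, the other 3 groups lie to its right, and the SPH1 RNAi stage 1.14 arrays reach over all of the Col-0 stage 1.14 arrays in 37 rows.

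10 of the genes encode secreted or cell wall proteins. Gene families are given here from general knowledge of the Arabidopsis annotation wherever the files list a locus without a symbol. Signals are listed in the order of replicates 1, 2 and 3. Each fold is the ratio of geometric means of signal + 16, so it is smaller than the ratio of the signals listed beside it. Where the older Col-0 signals are near or below 16 the constant sets much of the size, so for such genes the log2 difference is given under constants of 4, 16 and 64 in place of a fold. AT3G21770, a class III peroxidase of a secreted family that can cross-link or loosen wall polymers, had Col-0 signals of 171, 62.9 and 91.4 at stage 1.05 and 25.3, 25.7 and 3.8 at stage 1.14. Its SPH1 RNAi signals were 124, 90.5 and 95.3 at stage 1.05 and 301, 92.4 and 82.2 at stage 1.14. The log2 difference at stage 1.14 was 2.85, 2.21 and 1.31 with the constants of 4, 16 and 64, and every older SPH1 RNAi array lay far above every older Col-0 array. Replicate 1 was the brightest of the 12 arrays for this gene, and without it the log2 difference went from 2.21 to 1.67.

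3 members act on pectin, the gel-like polysaccharide of the primary wall. AT5G20740 belongs to the inhibitors of pectin methylesterase, the enzyme that removes methyl groups from pectin. In Col-0 it gave 83.4, 76.1 and 56.6 at stage 1.05 and 12.5, 2.0 and 8.0 at stage 1.14. In SPH1 RNAi plants the signals were 57.2, 42.2 and 54.7 at stage 1.05 and 92.7, 34 and 70.7 at stage 1.14, a log2 difference at stage 1.14 of 2.62, 1.75 and 0.84 with the 3 constants. The groups at stage 1.14 did not overlap, while at stage 1.05 the SPH1 RNAi arrays were mostly lower than those of Col-0. AT3G53190 and AT1G67750 encode pectate lyases, which cut pectin chains. AT3G53190 had Col-0 signals of 481, 306 and 303 at stage 1.05 and 83.4, 52 and 73.7 at stage 1.14. The SPH1 RNAi signals of AT3G53190 were 359, 271 and 268 at stage 1.05 and 368, 141 and 241 at stage 1.14, a 2.95-fold higher mean at stage 1.14. The difference held on every array, although replicate 2 was less than 2 times the highest Col-0 array. AT1G67750 gave 188, 153 and 164 at stage 1.05 and 62, 26.3 and 52 at stage 1.14 in Col-0. In SPH1 RNAi plants it gave 152, 96.8 and 115 at stage 1.05 and 267, 106 and 94.4 at stage 1.14, and the mean at stage 1.14 was 2.57-fold that of Col-0. Replicate 1 of the SPH1 RNAi group was again the highest array of all 12, and the log2 difference without it was 0.93 against 1.36.

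ARPN encodes plantacyanin, a small copper protein of the cell wall. Its Col-0 signals were 202, 165 and 184 at stage 1.05 and 33.7, 22.9 and 26.5 at stage 1.14, a 4.58-fold lower mean in older rosettes. SPH1 RNAi arrays gave 138, 137 and 184 at stage 1.05 and 195, 77.5 and 87 at stage 1.14, and the stage 1.14 mean was 2.91-fold that of Col-0. Replicates 2 and 3 lay between the young and the older control, and replicate 1 lay at the young level. TBL36 belongs to a family of enzymes that add acetyl groups to wall polysaccharides. Col-0 arrays gave 176, 56 and 76.7 at stage 1.05 and 26, 22.6 and 38.9 at stage 1.14 for TBL36. In SPH1 RNAi plants TBL36 gave 85.7, 74.7 and 65.4 at stage 1.05 and 202, 65.5 and 62 at stage 1.14, a 2.5-fold higher mean at stage 1.14. Replicates 2 and 3 were close to the lowest SPH1 RNAi array at stage 1.05, and replicate 1 was higher than any other array. Without replicate 1 the log2 difference of TBL36 went from 1.32 to 0.84. AT2G33850 encodes an E6-like protein, of a family first described in cotton fibre. Signals in Col-0 were 193, 192 and 307 at stage 1.05 and 34, 5.6 and 39.3 at stage 1.14. In SPH1 RNAi plants they were 125, 121 and 343 at stage 1.05 and 80.3, 87.3 and 74.9 at stage 1.14, 2.47-fold the Col-0 mean at stage 1.14. It was 6.17-fold lower in older than in young Col-0, and it was the only wall gene in which SPH1 RNAi replicate 1 was not the highest of its group. Its SPH1 RNAi arrays at stage 1.14 all lay below those at stage 1.05, so it showed part of the Col-0 change.

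SBT1.3 encodes a subtilase, a protein-cutting enzyme that is secreted to the wall. Its Col-0 signals were 436, 277 and 281 at stage 1.05 and 104.6, 87.2 and 101 at stage 1.14. SPH1 RNAi signals were 314, 264 and 285 at stage 1.05 and 381, 156 and 247 at stage 1.14, with a 2.31-fold higher mean at stage 1.14. AT5G55180, of the glycosyl hydrolase family 17 that cuts beta-1,3-glucans such as callose, gave 402, 259.8 and 283 at stage 1.05 and 91.6, 51.5 and 88 at stage 1.14 in Col-0. SPH1 RNAi arrays gave 321, 264 and 234 at stage 1.05 and 356, 98.6 and 194 at stage 1.14 for it, 2.28-fold the Col-0 mean at stage 1.14. In both genes replicate 1 was at the young level, replicate 3 was intermediate, and replicate 2 was the lowest SPH1 RNAi array but above Col-0. Without replicate 1 the log2 difference went from 1.21 to 0.91 for SBT1.3 and from 1.19 to 0.77 for AT5G55180. AT1G53070, a legume-type lectin, had mean signals of 33.3 ± 4.99 in Col-0 and 92.9 ± 22.7 in SPH1 RNAi rosettes at stage 1.14 (SD, n = 3). The SPH1 RNAi mean at stage 1.14 exceeded that at stage 1.05 in 5 of the 40 genes, and all 5 were wall genes: AT3G21770, AT5G20740, AT1G67750, TBL36 and AT1G53070. Without SPH1 RNAi replicate 1 at stage 1.14 it did so in 2, AT1G53070 and PPR596, by 0.03 and 0.0056.

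4 members belong to chromosome and actin functions. TOPII encodes DNA topoisomerase II, which untangles chromosomes before they separate. Its Col-0 signals were 129.8, 94.1 and 22.1 at stage 1.05 and 12.2, 3.1 and 5.3 at stage 1.14. SPH1 RNAi signals were 80.9, 87 and 66 at stage 1.05 and 67.1, 31.5 and 56.5 at stage 1.14, and the log2 difference at stage 1.14 was 2.39, 1.55 and 0.70 with the 3 constants. The 3 SPH1 RNAi arrays all lay above the Col-0 arrays at stage 1.14, while Col-0 at stage 1.05 was widely spread because of a low replicate 3. 3xHMG-box2 encodes a protein that binds chromosomes during division. Col-0 arrays gave 145, 95.7 and 52.6 at stage 1.05 and 23.7, 20 and 21.8 at stage 1.14 for 3xHMG-box2. SPH1 RNAi arrays gave 146, 112 and 110.5 at stage 1.05 and 102, 46.2 and 106 at stage 1.14, a 2.55-fold higher mean at stage 1.14. Here replicates 1 and 3 were alike and replicate 2 was low, and the Col-0 signals at stage 1.14 were closely grouped.

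AT2G43800 and AT5G48360 encode formins, which start and extend actin filaments. AT2G43800 had Col-0 signals of 225, 151 and 112 at stage 1.05 and 39.3, 27.2 and 32.3 at stage 1.14. Its SPH1 RNAi signals were 150.0, 149 and 116 at stage 1.05 and 215, 62 and 95.6 at stage 1.14, 2.59-fold the Col-0 mean at stage 1.14. AT5G48360 gave 102, 66.4 and 57.6 at stage 1.05 and 3.3, 2.8 and 6.2 at stage 1.14 in Col-0. It gave 55.9, 74.7 and 41.1 at stage 1.05 and 55.1, 12.9 and 32.6 at stage 1.14 in SPH1 RNAi plants, and the log2 difference at stage 1.14 was 2.06, 1.21 and 0.50 with the 3 constants. Both formins kept the order of replicates 1, 3 and 2 from high to low in the older SPH1 RNAi rosettes, and neither overlapped Col-0. Without replicate 1 the log2 differences were 0.94 and 0.90.

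7 members take part in the assembly of ribosomes or of the RNA particles that modify ribosomal RNA, and they included the 5 members with the highest mean signal. PES encodes pescadillo, needed for the large ribosomal subunit. Col-0 signals of PES were 355, 368 and 332 at stage 1.05 and 132, 117 and 144 at stage 1.14. SPH1 RNAi signals were 393, 418 and 341 at stage 1.05 and 387, 276 and 342 at stage 1.14, and the mean at stage 1.14 was 2.37-fold that of Col-0. The older SPH1 RNAi arrays overlapped both young groups, and the lowest of them was nearly 2 times the highest older Col-0 array. AT2G40360 is the counterpart of yeast Erb1, which binds the yeast pescadillo protein. Col-0 arrays gave 304, 336 and 253 at stage 1.05 and 149, 135 and 134 at stage 1.14 for it. The values in SPH1 RNAi plants were 355, 482 and 361 at stage 1.05 and 278, 266 and 348 at stage 1.14, 2.0-fold the Col-0 mean at stage 1.14. AT2G40360 was also 0.40 higher on the log2 scale in young SPH1 RNAi rosettes, the largest young difference of the 40 in that direction, and its older SPH1 RNAi mean was close to the young Col-0 mean and below the young SPH1 RNAi mean.

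AT1G52930 belongs to the Brix family, whose yeast member Brx1 acts in large-subunit assembly. Its Col-0 signals were 234, 228 and 183 at stage 1.05 and 82.2, 62.4 and 81.8 at stage 1.14. SPH1 RNAi signals were 193, 215 and 210.3 at stage 1.05 and 159, 149 and 204 at stage 1.14, 2.03-fold higher in the mean at stage 1.14. AT1G25260 is the counterpart of yeast Mrt4, which holds the place of a ribosomal stalk protein during assembly. Col-0 arrays gave 538, 524 and 531 at stage 1.05 and 202, 131 and 201 at stage 1.14 for AT1G25260. SPH1 RNAi arrays gave 495, 478 and 463 at stage 1.05 and 443, 408 and 364 at stage 1.14, a 2.2-fold higher mean at stage 1.14. The young Col-0 arrays agreed closely for this gene, and the older SPH1 RNAi arrays lay below them on every array.

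AT3G13230, a KH-domain RNA-binding protein, had Col-0 signals of 366, 427 and 381 at stage 1.05 and 123, 129 and 122 at stage 1.14. Its SPH1 RNAi signals were 291, 294 and 323 at stage 1.05 and 240.1, 323 and 256 at stage 1.14, 2.04-fold the older Col-0 mean. AT4G12600, the counterpart of the yeast RNA-particle protein Snu13, gave 544, 545 and 446 at stage 1.05 and 273, 186 and 261 at stage 1.14 in Col-0. It gave 553, 733 and 650.5 at stage 1.05 and 562, 478 and 466 at stage 1.14 in SPH1 RNAi plants and was 2.04-fold higher in the mean at stage 1.14. In both genes the older genotypes were clearly apart, with the lowest SPH1 RNAi array well above the highest Col-0 array. AT3G05060, of the Nop56 and Nop58 family that works in the same particles, had older means of 66.7 ± 12.5 in Col-0 and 150.3 ± 12.3 in SPH1 RNAi rosettes (SD, n = 3).

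Other genes of ribosome assembly, listed after the members were known and therefore not tested, differed in the same direction by less. Of 19 such loci 18 had a mean signal of at least 32, and all 18 were higher in SPH1 RNAi than in Col-0 rosettes at stage 1.14, by a median of 0.64 (range 0.33 to 0.97). None reached 1, but the members were not on this list, so genes that met the whole rule could not appear. In Col-0 all 18 were lower at stage 1.14, with a median change of -0.61, and 2 of them by at least 1. Over all tested probe sets the medians were 0.04 for the genotype difference at stage 1.14 and 0.02 for the Col-0 change. The shares of all tested probe sets in these directions were not computed. Of the 369 probe sets described above, which fell by at least 1 in Col-0, 91.6% were higher in older SPH1 RNAi rosettes. Their median difference was 0.66. The same Col-0 arrays at stage 1.14 enter both directions, so nothing is read from these counts. At stage 1.05 the median genotype difference of the 18 genes was 0.14, against 0.04 over all tested probe sets. AT5G15550, the counterpart of yeast Ytm1, the remaining partner of pescadillo and Erb1, differed by 0.66 at stage 1.14. It already differed by 0.49 at stage 1.05, and its Col-0 stage change was -0.26. At stage 1.14 AT3G15460, the close copy of the Brix gene AT1G52930, differed by 0.62. AT4G22380 and AT5G20160, the copies of AT4G12600, differed by 0.53 and 0.81. IMP4, which acts on the small subunit, differed by 0.55. Copies of such near-identical genes can share probe signal, and how much they did was not tested.

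**Figure D2:**
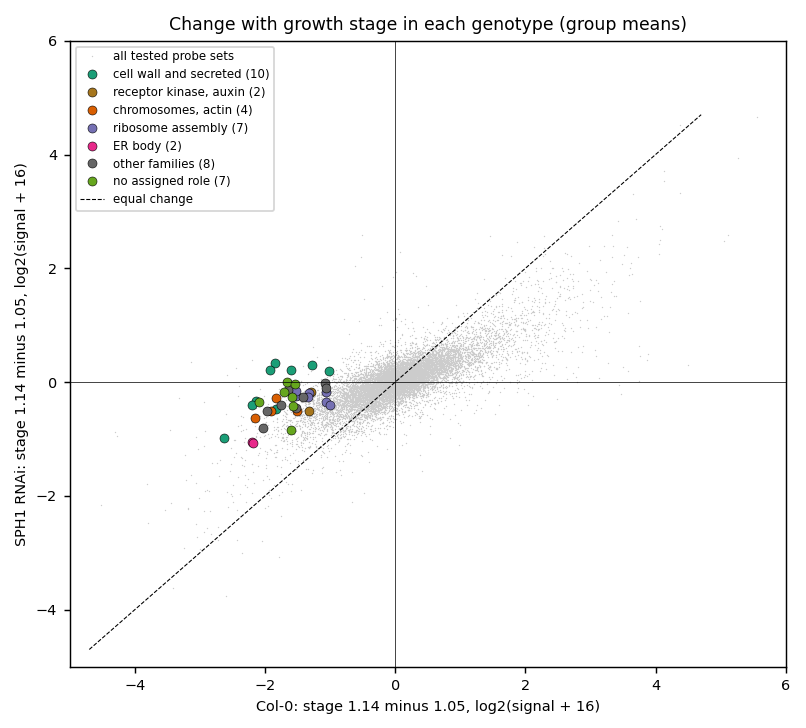
Change of the group mean from stage 1.05 to stage 1.14 on the log2(signal + 16) scale, in Col-0 (horizontal axis) and in SPH1 RNAi plants (vertical axis), for all 13263 tested probe sets (grey) and the 40 genes (coloured by role group), with a dashed line of equal change. The 40 genes lie left of -1 in Col-0 and between -1.07 and 0.34 in SPH1 RNAi plants, with the ER body genes lowest; the 5 genes above 0 are all wall genes.

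2 members belong to the ER body, a spindle-shaped compartment of the endoplasmic reticulum that stores defence enzymes in seedlings and roots. Their values on every array are given, although they fall outside the rule for full listing. They were chosen after their values were seen, for having the lowest SPH1 RNAi stage changes of the 40. NAI2, a protein needed to form ER bodies, had Col-0 signals of 147, 94.8 and 69.9 at stage 1.05 and 9.8, 8.5 and 9.4 at stage 1.14. Its SPH1 RNAi signals were 141, 90.2 and 113 at stage 1.05 and 131, 25 and 24.3 at stage 1.14. JAL33, a lectin of the complex that forms around the ER body enzyme PYK10, gave 141, 86.5 and 112 at stage 1.05 and 9.4, 6.4 and 22.6 at stage 1.14 in Col-0 and 127, 82.5 and 115 at stage 1.05 and 68.7, 32.8 and 31.8 at stage 1.14 in SPH1 RNAi plants. Both genes were lower in older than in young SPH1 RNAi rosettes, with changes of -1.05 for NAI2 and -1.07 for JAL33. For NAI2 the genotype difference of 1.31 at stage 1.14 was 0.69 without SPH1 RNAi replicate 1, and for JAL33 1.06 became 0.79. With the constants of 4, 16 and 64 the difference was 1.86, 1.31 and 0.65 for NAI2 and 1.56, 1.06 and 0.49 for JAL33. PYK10 itself met the thresholds and was left out by name, so it is described here with no test. It had older signals of 21.4, 16.3 and 14.2 in Col-0 and 355, 39.4 and 61.3 in SPH1 RNAi plants. PYK10 and NAI2 thus shared a high replicate 1 and replicates 2 and 3 that were closer to older Col-0 than to young rosettes. The lectin genes JAL34, JAL22 and JAL23 differed by 0.67, 0.37 and 0.08 at stage 1.14 and by 0.23, 0.56 and -0.09 at stage 1.05. Their stage changes were -1.08, -1.79 and 0.19 in Col-0 and -0.64, -1.98 and 0.36 in SPH1 RNAi plants. JAL22 thus fell slightly more in SPH1 RNAi plants, and JAL23 did not fall in Col-0. NAI1, the regulator of ER body genes, had a mean signal of 9.27.

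2 members act in signalling. AT4G36180 encodes a receptor kinase with leucine-rich repeats, with older means of 36.4 ± 2.47 in Col-0 and 107 ± 43.7 in SPH1 RNAi rosettes (SD, n = 3). GH3.17, an enzyme that joins auxin to an amino acid, had older means of 9.2 ± 4.47 and 39.7 ± 31.4. The SPH1 RNAi spread of GH3.17 came from replicate 1 at 75.1, with 15.3 and 28.6 on the other arrays.

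8 members were grouped as other families, although none was assigned to AT5G66230. AT5G13520, a peptidase of the M1 family, had Col-0 signals of 58.1, 81.5 and 38.1 at stage 1.05 and 4.7, 4.0 and 23.5 at stage 1.14. SPH1 RNAi signals were 64.6, 79.1 and 72.5 at stage 1.05 and 65.6, 29.1 and 56.7 at stage 1.14, a log2 difference at stage 1.14 of 2.06, 1.34 and 0.61 with the 3 constants. VPS2.2 encodes a subunit of the ESCRT machinery that sorts membrane proteins for breakdown. Col-0 arrays gave 92.7, 104 and 75.2 at stage 1.05 and 26.8, 3.8 and 7.2 at stage 1.14 for VPS2.2. SPH1 RNAi signals of VPS2.2 were 73.2, 90.8 and 76.8 at stage 1.05 and 67, 42.5 and 47.3 at stage 1.14, a log2 difference at stage 1.14 of 1.99, 1.32 and 0.61 with the 3 constants. Col-0 signals at stage 1.14 were uneven for both genes, with AT5G13520 highest on replicate 3 and VPS2.2 on replicate 1, and neither overlapped the SPH1 RNAi arrays. DI21 is named as a drought-induced gene. Its older signals were 21.3, 17.5 and 17.5 in Col-0 and 165, 18.9 and 75 in SPH1 RNAi plants, so SPH1 RNAi replicate 2 lay within the Col-0 range. AT5G25475, of the B3 family of DNA-binding proteins, had older signals of 22.6, 10.9 and 16.8 in Col-0 and 107, 20.3 and 45.6 in SPH1 RNAi plants, and it also overlapped.

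PPR596, a pentatricopeptide repeat protein of a family that processes RNA in organelles, had older means of 49.7 ± 5.5 in Col-0 and 119.7 ± 22.8 in SPH1 RNAi rosettes (SD, n = 3). It was almost level between the stages in SPH1 RNAi plants (-0.02), without a high replicate 1. AT3G01410, an RNase H-like protein, had older means of 7.03 ± 3.57 and 32 ± 12.6. AT5G05670, related to a signal recognition particle receptor, which docks ribosomes at the endoplasmic reticulum, had 10.4 ± 6.07 and 39.8 ± 15.7. AT5G66230, for which no family was assigned, had 19.8 ± 10.5 and 60.5 ± 30.8.

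A further 7 members have no symbol in the gene list used and no family was assigned to them. Older SPH1 RNAi means were 185 ± 142 for AT5G16250 and 157 ± 134 for AT3G02640, against 56.7 ± 11.5 and 47.2 ± 19.5 in Col-0 (SD, n = 3). In both genes the large SD came from replicate 1, at 349.5 and 312, while replicates 2 and 3 were nearly equal to each other. AT3G12870 had older means of 30.0 ± 15.2 in Col-0 and 100.1 ± 55.9 in SPH1 RNAi rosettes. AT4G15830 had 24.9 ± 7.17 and 85.7 ± 43.1. AT4G02800 had 6.4 ± 4.3 and 42.5 ± 27.1. AT2G41650 was the member with the largest SPH1 RNAi stage change of the 7 (-0.84), and its older means were 25.2 ± 6.86 and 69.6 ± 23.8. AT2G07170 had older signals of 12.4, 1.5 and 8.4 in Col-0 and 88.1, 8.4 and 30.9 in SPH1 RNAi plants, and SPH1 RNAi replicate 2 lay inside the Col-0 range. All 7 genes were highest on replicate 1 among the older SPH1 RNAi arrays, and none of the 7 kept a difference of 1 without it.

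SPH1 RNAi replicate 1 at stage 1.14 is described here by role group, with no test. It was the highest array of its group in 33 of the 40 genes (82.5%), against 41.6% of all tested probe sets, and it lay above the mean of replicates 2 and 3 by a median of 0.86 on the log2 scale, against 0.03. The excess was 1.02 for the wall genes, 0.71 for the chromosome and actin genes, 1.33 for the ER body genes and 1.103 for the genes without a role. For the ribosome assembly genes it was -0.06 (range -0.25 to 0.32), and replicate 1 was the highest in 3 of 7. Without replicate 1 the median difference at stage 1.14 was 0.93 over the 40 genes, 1.07 for the wall genes, 1.06 for the ribosome assembly genes and 0.74 for the ER body genes. The difference then ran from 0.54 to 1.67, above 0 in every gene, and it was at least 1 in 16. Those 16 comprised 5 of 10 wall genes, 2 of 4 chromosome and actin genes, 6 of 7 ribosome assembly genes and 3 of 8 grouped as other families. Replicate 1 was also the highest array of Col-0 at stage 1.05 in 30 of the 40 genes, against 40.8% of all tested probe sets. It lay above its group mean in 37 and 32 of the 40 genes in Col-0 at stages 1.05 and 1.14, and in 28 and 34 in SPH1 RNAi plants at stages 1.05 and 1.14. The rule used these group means, and a high array in a group that the rule asks to be high favours selection. Nothing is therefore read from the differences to the background or between the role groups. The median SD of the 40 genes on the log2 scale was 0.57 in SPH1 RNAi rosettes at stage 1.14 and 0.20 to 0.30 in the other groups.

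**Figure D3:**
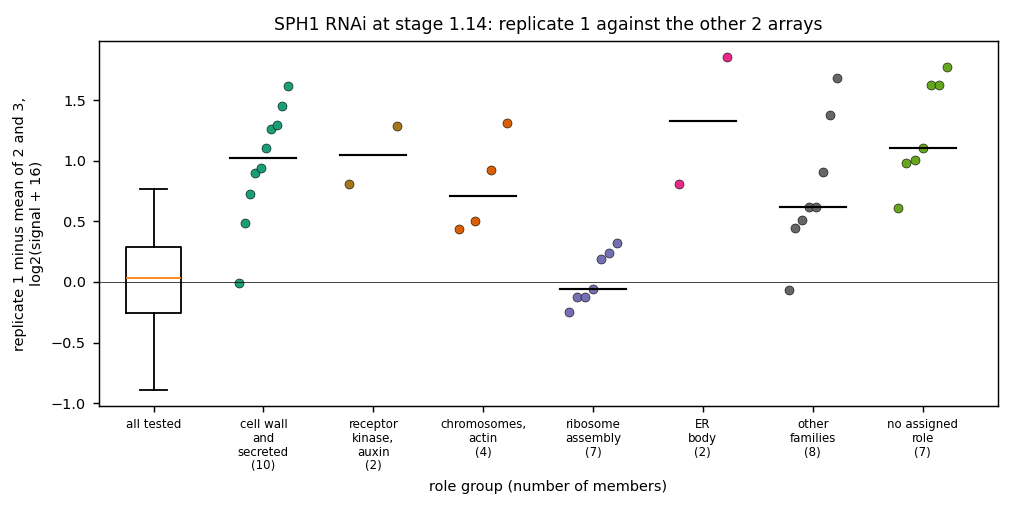
SPH1 RNAi replicate 1 at stage 1.14 minus the mean of replicates 2 and 3, in log2(signal + 16), for each of the 40 genes by role group (points, with the group median as a bar) beside a box of all tested probe sets (median, quartiles, and whiskers at the 5 and 95 percentiles). The 7 ribosome assembly genes lie between -0.25 and 0.32, and of the other genes all but AT2G33850 and PPR596 lie at 0.44 or higher.

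Markers of other cell types were summed on each array, and SPH1 RNAi replicate 1 at stage 1.14 was the highest of its group for the root sum and the lowest for the mesophyll sum. 4 of 21 root markers had a probe set listed with 1 gene, and their summed signal on the older SPH1 RNAi arrays was 398, 96.4 and 107, against 66.3 to 73.2 in older Col-0, 378 to 609 in young Col-0 and 330 to 584 in young SPH1 RNAi rosettes. PYK10 alone gave 355 of the 398 on SPH1 RNAi replicate 1. PYK10 met the thresholds of the rule, so the height of the root sum in older SPH1 RNAi rosettes is a description and says nothing about root cells. EXPA7 and EXPA18, expansins of root hair cells, had signals of 12.6 and 27 on SPH1 RNAi replicate 1 and of 20.8 to 28.4 on replicates 2 and 3. The root peroxidase AT3G01190 was at or below 3.8 on all arrays. 3 of 14 mesophyll markers (RCA, PRK and SBPASE, enzymes of carbon fixation) summed to 4696, 8389 and 6790.4 on the older SPH1 RNAi arrays and to 6537 to 8766 in older Col-0. 2 of 9 senescence markers (SAG29 and WRKY53) summed to 231, 109 and 239 on the older SPH1 RNAi arrays and to 85.9 to 142 in older Col-0. The sum was 126 to 161 in young Col-0 and 68.2 to 107 in young SPH1 RNAi rosettes. With stage in Col-0, SAG29 changed by -2.20 and WRKY53 by 1.65, so the sum joins markers that moved in opposite directions. CLV3, the 1 measured meristem marker of 6, had signals of 1.3 to 4.2 over the 12 arrays. No marker was at 0 on all arrays of a group, and xylem, phloem and flower markers were not analysed here. The part of these cell types in the levels of the 40 genes was not tested.

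How far the 40 genes depended on an array was seen by leaving out each array in turn. Without SPH1 RNAi replicate 1 at stage 1.14, 16 of the 40 still met the rule. Without Col-0 replicate 2 at stage 1.14, on which 38 of the 40 genes lay below their group mean, 21 did. With that array left out, 2 of the 7 ribosome assembly genes and 7 of the 10 wall genes met the rule. Leaving out any of the other 10 arrays left 32 to 39. ARPN, AT3G21770, AT3G53190, AT5G13520, PES and VPS2.2 met the rule under all 12 omissions. The fewest were 6 of 12, for AT3G01410 and AT3G02640. With a constant of 64 in place of 16 the rule held for 3 genes, with 4 for 37, and after quantile normalization for 26, and the lowest genotype difference of any of the 40 at stage 1.14 under these settings was 0.43, 1.06 and 0.88.

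**Figure D4:**
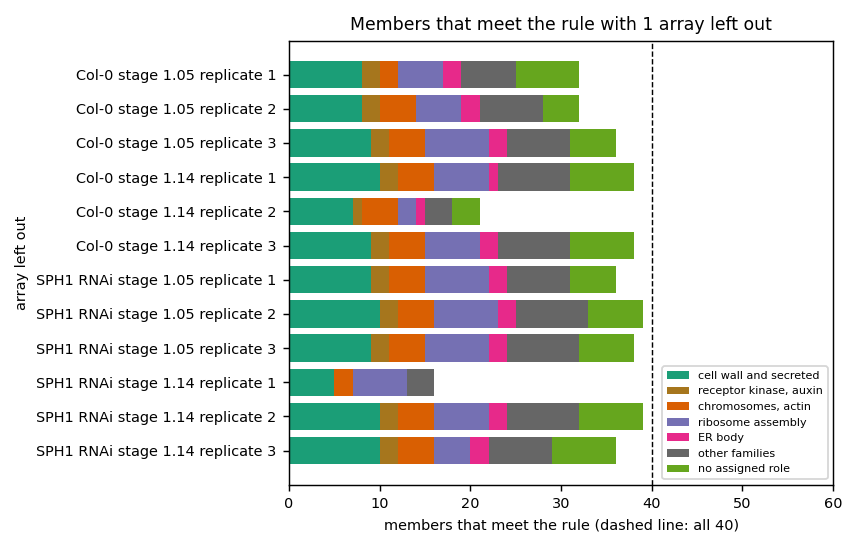
Number of the 40 genes that met the selection rule after each of the 12 arrays was left out (bars stacked by role group, dashed line at 40). The bars for SPH1 RNAi replicate 1 and Col-0 replicate 2, both at stage 1.14, end at 16 and 21, and the others end between 32 and 39.

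The genes closest to the limits of the rule show how narrowly membership was decided. At stage 1.14, AT2G40360 and AT5G25475 lay just inside at 1.002 and 1.004, and the ribosomal protein genes AT1G15930 and AT2G44120 just outside at 0.998 and 0.992. At stage 1.05, AT3G02640 at -0.50 and AT3G01410 at -0.47 were inside, and AT4G38660 at -0.53 and AT4G39200 at 0.56 outside. For the Col-0 stage change, AT2G40360 at -1.005 and AT1G53070 at -1.02 were inside, and AT2G20870 at -0.82 and AGL24 at -0.81 outside. AT3G01410 and AT2G07170 had the lowest mean signals of the members, 32.9 and 35.02, and AT4G03100 and AT3G45090, at 31 and 20.35, met the other thresholds but not this one.

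The 40 genes were spread over the genome. Chromosomes 1 to 5 held 6, 6, 11, 6 and 11 of them among 7156, 4317, 5460, 4180 and 6331 annotated genes. The closest pair, AT4G15830 and DI21 on chromosome 4, were 8 genes apart, and the next, AT1G52930 and AT1G53070 on chromosome 1, 15 genes apart. No pair were direct neighbours.

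Genes outside the 40, from lists for growing leaves and for cell types, were tested, since the rule did not choose them, with limma over all 13263 tested probe sets and Benjamini-Hochberg adjustment. There were 37 of them, from lists of growth, wall, hormone, pigment and marker genes. At stage 1.14, 1 of the 37 was higher in SPH1 RNAi than in Col-0 rosettes and none was lower, against 4.7% and 2.06% of all tested probe sets (6.76% in either direction). At an unadjusted p under 0.05, 7 were higher and 6 lower, against 14.6% and 8.69% of all. In Col-0, 8 of the 37 rose and 13 fell from stage 1.05 to stage 1.14, against 23.7% and 21% of all (44.6% together). At stage 1.05, 2 were higher and 2 lower in SPH1 RNAi plants, against 4.57% and 0.762% (5.33% together). From stage 1.05 to stage 1.14 in SPH1 RNAi plants 4 rose and 1 fell, against 5.78% and 4.46% (10.2% together). In the interaction of genotype and stage 1 was higher and none lower, against 1.48% and 1.88% (3.36% together), and 9 and 3 at an unadjusted p under 0.05, against 9.79% and 10.1% of all. Most loci of these lists have no probe set listed with 1 gene, so they cover their pathways thinly.

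The gene that passed was PRL, which encodes MCM7, a subunit of the helicase that opens DNA for replication. Its older signals were 56.7, 35.5 and 56.3 in Col-0 and 104.8, 79.2 and 114.3 in SPH1 RNAi plants, a log2 difference of 0.82 ± 0.19 (SE, limma adjusted p = 0.0249), with all SPH1 RNAi arrays above all Col-0 arrays. The call was lost with the 6 arrays of stage 1.14 alone (adjusted p = 0.0776), and without Col-0 replicate 2 (0.0813) or 3 (0.0503) or SPH1 RNAi replicate 1 (0.0577) or 3 (0.0849) of that stage. AUR1 and AUR2, kinases of chromosome separation, differed by 0.62 and 0.68 and did not pass (limma adjusted p = 0.0703 and 0.0639). Without SPH1 RNAi replicate 2 at stage 1.14 both passed, with 0.76 and 0.89 (limma adjusted p = 0.0396 and 0.0189). These 3 were the measured genes of 30 listed for cell division, and all 3 fell in Col-0 with stage, with changes of -1.25 for PRL, -0.97 for AUR1 and -1.21 for AUR2.

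At stage 1.14 the genotype difference of the other listed and measured pectate lyases was smaller than in the 2 members or went the other way. The list did not hold AT3G53190, so it was not complete. Members were left out of the tests, so genes that met the whole rule could not appear. Of 7 tested with limma, none passed between genotypes at stage 1.14 (0 higher and 2 lower at an unadjusted p under 0.05), and their median difference was -0.20 against 0.04 over all tested probe sets. In Col-0, 3 of the 7 fell and 1 rose with stage. The 3 that fell changed by -0.95 to -0.71 in Col-0 and by -0.12 to 0.25 in SPH1 RNAi plants. In the interaction of genotype and stage none of the 7 passed (limma). At an unadjusted p under 0.05, 3 were higher and 1 lower, against 9.79% and 10.1% of all tested probe sets. The 3 higher were those that fell in Col-0, and that fall enters the interaction. AT4G13710 differed by 0.45 between the genotypes at stage 1.14, AT5G63180 by -0.41, AT3G07010 by -0.72 and AT5G48900 by -0.85, with limma adjusted p from 0.131 to 0.454. Without Col-0 replicate 2 at stage 1.14, AT5G48900 and AT3G07010 passed as lower, at -1.34 and -1.09 (limma adjusted p = 0.0045 and 0.0125). Whether the members differed from these family mates was not tested, because the rule chose the members for their difference.

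Tubulins, which form the microtubules that guide wall synthesis, also had no call among 7 tested with limma (median -0.19, and 1 higher and 1 lower at an unadjusted p under 0.05). TUB7 had a Col-0 stage change of -1.33 and a genotype difference of 0.78 at stage 1.14 (limma adjusted p = 0.22). Its older SPH1 RNAi signals were 297, 99.5 and 107, high on replicate 1, against 106, 41.9 and 109 in Col-0. TUB5 went the other way, with -0.47 between the genotypes and a rise of 1.44 in Col-0. TUA6 and TUB6 differed by 0.39 and -0.32 at stage 1.14. Without SPH1 RNAi replicate 1, TUB6 passed as lower, at -0.67 (limma adjusted p = 0.047). COB, which orients cellulose, differed by -0.59 and did not pass (limma adjusted p = 0.11).

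Regulators of leaf growth and shape gave no call at stage 1.14 either, with a median of 0.12 over 4 tested genes and 1 of them higher at an unadjusted p under 0.05. PHV, which sets the upper leaf side, differed by 0.50 (limma adjusted p = 0.0687, and 0.0496 without SPH1 RNAi replicate 2 at stage 1.14), YAB3 by -0.26, AN by 0.19 and YAB5 by 0.05. AGL24, a flowering regulator, differed by 1.08 and missed the threshold (limma adjusted p = 0.0664). Its older signals of 94, 37.2 and 33.6 in SPH1 RNAi plants lay above the Col-0 signals of 20.6, 4.7 and 24.5. TRY, a repressor of leaf hairs, differed by 0.63 and FAMA, a regulator of stomatal guard cells, by -0.01. Among hormone, pigment and secondary metabolism genes, none of 7 passed at stage 1.14, and 2, IAA29 and BCAT4, were lower at an unadjusted p under 0.05. IAA29 differed by -0.99, GID1A by -0.01, PORB by -0.23, CHLM by -0.13, HCT by -0.06, BCAT4 by -0.69 and UGT74B1 by -0.14. No listed arabinogalactan, cuticle or aquaporin gene was analysed here. None of the 5 marker genes tested passed either: RCA, PRK and SBPASE differed by -0.13, -0.51 and -0.52, SAG29 by 0.85 and WRKY53 by 0.58.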

How the data were processed

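RNA from rosette leaves was hybridised to 12 ATH1 arrays (22810 probe sets, 64 of them controls). The authors deposited 1 signal intensity per probe set and array. No source used here names the software that summarised the probes, and the intensity values themselves show a common trimmed mean of about 100.01 per array. No depth exists for arrays, so the number of arrays limits the precision. Average backgrounds of 68.54 to 136.5 come from the labels. Probe sets were named through the platform annotation (13513 with 1 gene, 503 with several, 8730 unnamed), with symbols updated by locus. Families of loci without a symbol, which the rule needed, were assigned from general knowledge, and 54 unnamed and 4 several-gene probe sets that met the thresholds were not used.

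Signals were used as log2(signal + 16). Probe sets with a mean signal of at least 32 and no control (13263) were fitted with limma 3.58.1 in R 4.3.3 (lmFit, eBayes with intensity trend, 4 group means over 12 arrays), with Benjamini-Hochberg adjustment and a threshold of 0.05, and the fit was tested on simulated data. Genes used by the rule get no test. With 3 arrays a group, an exact permutation test of a single value could not go below p = 0.1. Values on every array are given for the 12 members with the largest difference at stage 1.14, the 8 further members with the highest mean signal and their family mates. Up to 4 genes of each list are named, those with the largest difference at stage 1.14. The members, the lists and the tests were chosen with earlier results of these data known, and the ribosome assembly and ER body lists after the values were seen. NAI2, JAL33, DI21, AT5G25475 and AT2G07170 were singled out after their values were seen. Alternatives were the constant, the filter, quantile normalization, a replicate block, fits on 6 arrays and each array left out. No genome or sequence table was used, so no sequence or promoter motif is given.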

Additional observations from a re-analysis of the deposited data

Results flagged for a closer look

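SAG29, a sugar transporter gene named for its expression in senescing leaves and 1 of the 2 measured senescence markers, differed between the stages in its genotype difference. The difference at stage 1.14 exceeded that at stage 1.05 by 2.59 on the log2(signal + 16) scale (limma interaction, adjusted p = 0.0425). At stage 1.05 SPH1 RNAi minus Col-0 was -1.74, with signals of 33.7, 6.3 and 42.8 against 104.9, 107 and 147 and no overlap. At stage 1.14 it was 0.85, with 36.7, 10.2 and 89.7 against 19.6, 11.8 and 9.4, and the groups overlapped. Adjusted p was 0.0599 with a constant of 4 and 0.0864 with no filter on the mean signal. It was 0.05004 to 0.101 for 10 of the 12 arrays left out in turn, the exceptions being SPH1 RNAi replicate 1 at stage 1.05 and replicate 2 at stage 1.14. SAG29 is not one of the 40 genes.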

How the results depend on the processing

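The count of the 40 genes that met the rule was 3 with a constant of 64 and 26 after quantile normalization, and 16 to 39 with each array left out. No value past its threshold changed sign under the alternatives run, and the difference at stage 1.14 stayed above 0 in each of the 40 genes. At an adjusted p under 0.05 (limma), 896 probe sets differed between genotypes at stage 1.14, 707 at stage 1.05, 5919 between stages in Col-0, 1358 between stages in SPH1 RNAi plants and 446 in the interaction. With only the 6 arrays compared, the counts at stage 1.14 and for the SPH1 RNAi stages were 154 and 462. The interaction had 236 calls with no filter on the mean signal. With each array left out the counts ran from 382 to 1098, 366 to 1056, 4657 to 6412, 680 to 1496 and 119 to 702, in the order above. A fit with the replicate number as a block gave 998, 731, 5941, 1362 and 523. Whether the numbers pair the arrays was not settled. Same-numbered arrays had deviations from their group means that correlated from -0.25 to 0.49 over 18 pairs, and 7 exceeded 0.1. Between Col-0 and SPH1 RNAi at stage 1.14 the correlations were 0.49, 0.36 and -0.25 for replicates 1, 2 and 3. With the block AUR2 and AGL24 passed at stage 1.14. The remaining values followed were those of single genes and counts of called genes or probe sets. Of these, 2795 stayed the same, 66 moved, 24 gained and 24 lost a call. For a tested gene the same meant an unchanged call. For a member it meant a shift smaller than the SD of its older SPH1 RNAi arrays, and for a count a change within a set factor. Dim genes are limited by background: the constant and the mean signal filter decide whether those near a signal of 32 count.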
